A study of Mus musculus with 31 samples.

Results

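The interferon response genes described here are 39 genes that cells raise when they meet an interferon: 33 of the type I response and 6 interferon-inducible GTPases (Gbp2, Gbp3, Gbp4, Gbp7, Igtp and Irgm1). They were chosen by name, but with earlier results of these data known. All 39 were among the 31053 gene symbols of each of 3 count tables of mouse T helper 17 (Th17) cells, the CD4 T cells that make interleukin 17. In the Cyp11a1 experiment, 6 libraries came from conditional knockout (cKO) cells and 4 from wild-type (WT) cells. Cyp11a1 encodes the enzyme that starts steroid synthesis from cholesterol. In the GR experiment, 4 libraries came from cKO cells and 5 from WT cells for the glucocorticoid receptor (GR), the product of Nr3c1. All these cells carried the 2D2 T cell receptor, which sees a myelin protein, had been turned into homeostatic Th17 cells in culture, and were sorted from the central nervous system (CNS) of Rag1 knockout hosts at the peak of experimental autoimmune encephalomyelitis. Such hosts lack lymphocytes that rearrange receptors, and keep myeloid and NK cells. The Cre line behind each cKO is not given in the sources used here. In the in vitro experiment, WT inflammatory Th17 cells from spleen and draining lymph nodes were cultured for 2 days with TGF-β1 and dexamethasone (Dex, a synthetic glucocorticoid), with TGF-β1, with Dex, or with neither (control), with 3 libraries in each of the 4 groups. Every mouse was C57/B6, and each library was made from about 2000 sorted cells.

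Type I interferons act through a receptor whose signal brings a complex with STAT2 and IRF9 to a DNA element called the ISRE, whose core reads GAAA, any pair of bases, and GAAA again. Interferon gamma acts through its own receptor and the GAS element, with the core TTCNNNGAA, and it raises the guanylate-binding proteins and related GTPases strongly. The products block viral RNA and proteins (the IFIT, OAS, IFITM and MX families), sense foreign nucleic acid, carry the signal onward, or, as with the ubiquitin-like ISG15 and its protease USP18, modify proteins and end the signal. T cells keep part of this programme on without infection.

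Promoters are shown because the members that passed a test in these data differ in whether they carry those elements. Members that did not pass differ in this too, and whether the elements bear on the calls was not tested. RefSeq (GRCm38.p6) held the promoters of 31 of the 39 members. In the 250 bases before the start, the ISRE core was found on either strand in 15 of these 31 (48.4%), against 936 of 27025 genes (3.46%). The GAS core was found in 8 of the 31 (25.8%), against 2197 of the 27025 genes (8.13%). The 15 with an ISRE core include all 5 GTPases with a listed promoter (Gbp2, Gbp3, Gbp7, Igtp and Irgm1). Among members, matches to the ISRE and GAS cores overlapped in Bst2 alone. Of the members that passed a test somewhere, Isg15, Oas3 and Ifitm2 had an ISRE core, Isg20 had a GAS core in 1 of its 3 listed promoters, and Ifitm3, Xaf1 and Ifih1 had no match in this window. The 150 bases before the start are given below on the strand of each gene, with every match in capitals, from GRCm38.p6. Isg15 (minus strand, chr4:156200819-156200968) has 3 overlapping ISRE cores that begin at positions -78, -72 and -66. Oas3 (minus strand, chr5:120777660-120777809) has 1 at -75, Ifitm2 (minus strand, chr7:140955962-140956111) has 1 at -46, and the first promoter of Isg20 (plus strand, chr7:78913274-78913423) has a GAS core at -73. Ifitm3 (minus strand, chr7:141010745-141010894) lies near Ifitm2 and is shown as the member without a match. Usp18 and Gbp4 are named only.
Isg15: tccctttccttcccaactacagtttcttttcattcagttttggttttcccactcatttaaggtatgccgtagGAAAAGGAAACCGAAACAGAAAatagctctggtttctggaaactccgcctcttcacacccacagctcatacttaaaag
Oas3: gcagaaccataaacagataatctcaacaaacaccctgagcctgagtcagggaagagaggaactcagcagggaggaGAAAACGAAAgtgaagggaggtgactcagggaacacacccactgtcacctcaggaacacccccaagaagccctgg
Ifitm2: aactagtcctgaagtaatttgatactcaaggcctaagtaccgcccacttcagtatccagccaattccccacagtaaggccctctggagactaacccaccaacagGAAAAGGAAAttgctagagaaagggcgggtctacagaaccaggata
Isg20: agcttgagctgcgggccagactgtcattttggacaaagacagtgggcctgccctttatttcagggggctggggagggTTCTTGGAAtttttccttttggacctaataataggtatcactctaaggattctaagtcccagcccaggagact
Ifitm3: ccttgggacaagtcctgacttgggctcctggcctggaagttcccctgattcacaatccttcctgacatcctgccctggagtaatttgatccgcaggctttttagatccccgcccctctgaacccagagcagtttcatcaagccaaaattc

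Library totals ran between 4322688 and 5118543 counts for Cyp11a1, between 3552871 and 5623305 for GR and between 2769203 and 4291149 for the cultures. Predicted genes that behave like repeats took 13.1% to 37.3%, 14.3% to 54.6% and 9.09% to 28.7% of these counts. The T cell markers, 12 of 12 detected in every group, summed to 34185 to 39979, 16104 to 21590 and 3462 to 3845 CPM (counts scaled to a common library size with edgeR's TMM factor). All 23 myeloid and microglia markers were detected in both CNS experiments, at summed levels of 610 to 1645 CPM in the Cyp11a1 experiment and 6060 to 26102 CPM in the GR experiment. In culture that sum was 101 to 143 CPM, with 13 to 15 of the 23 detected in a group and the defining markers Csf1r, Itgam and Adgre1 at 0 in all 4 groups. Dex library 3 held 23 counts of Chil3 and 6 of Tyrobp, against at most 2 and 0 in the other 11 cultured libraries. Cyp11a1 had 4 counts in cKO library 2 of its own experiment and 0 in the other 5 cKO libraries, against 0 in the 4 WT libraries, so the deletion could not be checked from these counts. Nr3c1 had 6.76 to 10.24 CPM (27 to 53 counts) in GR cKO libraries and 12.98 to 18.85 CPM (43 to 104 counts) in GR WT libraries, so that in CPM the genotypes did not overlap. The tables were normalised separately, so levels from different experiments are set side by side below without a test. RNA of myeloid cells and of Th17 cells is not separated in any of these levels.

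Highest per length of transcript among the 39 members, averaged over the 31 libraries, were Ifitm2, Ifitm3, Bst2, Igtp, Isg20, Isg15, Ifitm1 and Ifi35, and their levels follow as mean CPM per kilobase of exon. Ifitm2, a membrane protein that blocks virus entry, stood at 492.96 ± 59.1 in Cyp11a1 cKO and 319 ± 42.9 in Cyp11a1 WT cells, and at 258 ± 70.9 in GR cKO and 342 ± 112 in GR WT cells (SD, n = 6, 4, 4 and 5 throughout). In culture Ifitm2 was the highest member, at 660 ± 31.2 with TGF-β1 and Dex, 741 ± 29.7 with TGF-β1, 607 ± 16.7 with Dex and 639 ± 14.1 in control (SD, n = 3 each throughout). Its relative Ifitm3 led in the CNS, at 670 ± 154 in Cyp11a1 cKO and 472 ± 128 in Cyp11a1 WT, and at 546 ± 92.3 in GR cKO and 726 ± 150.02 in GR WT. The order of the pair was thus turned round in culture, where Ifitm3 stood at 46.1 ± 13.3 with TGF-β1 and Dex, 46.9 ± 2.60 with TGF-β1, 104 ± 7.61 with Dex and 93.0 ± 23.8 in control. Of the 38-base words of Ifitm2, 52.6% are shared with other genes, mainly the pseudogene Gm45717, so its counts depend on how such reads were divided.

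Bst2, or tetherin, which holds budding viruses at the cell surface, averaged 123 ± 15.6 CPM per kilobase in Cyp11a1 cKO and 110.5 ± 20.6 in Cyp11a1 WT, 222 ± 34.8 in GR cKO and 200.4 ± 21.5 in GR WT. In culture its means were between 239 and 266. Igtp, a GTPase that acts on parasite vacuoles, had group means between 50.7 and 75.9 over the 8 groups. Ifi35, a leucine zipper protein that binds NMI, was the steadiest of these 8, with group means between 30.6 and 33.5. Isg20, an exonuclease that degrades viral RNA, averaged 53.9 ± 6.33 in Cyp11a1 cKO, 42.6 ± 3.24 in Cyp11a1 WT, 43.4 ± 3.70 in GR cKO and 46.6 ± 3.72 in GR WT. In culture Isg20 averaged 18.3 ± 5.14 with TGF-β1 and Dex, 12.5 ± 1.85 with TGF-β1, 29.4 ± 7.33 with Dex and 11.7 ± 4.22 in control. Isg15 had means of 30.8 ± 7.74 in Cyp11a1 cKO and 30.7 ± 3.52 in Cyp11a1 WT, 63.7 ± 3.22 in GR cKO and 71.0 ± 20.7 in GR WT, and 5.65 to 19.3 in the cultured groups. Ifitm1 spread most, at 75.5 ± 28.1 in Cyp11a1 cKO and 31.8 ± 29.1 in Cyp11a1 WT, 24.5 ± 5.73 in GR cKO and 51.0 ± 34.1 in GR WT, and 6.39 to 13.8 in culture. Over all libraries Isg20, Isg15, Ifitm1 and Ifi35 averaged 36.0, 34.4, 33.6 and 31.3, which is closer to one another than the SD of Isg15 among Cyp11a1 cKO libraries, while Igtp averaged 60.3, Bst2 197, Ifitm3 406 and Ifitm2 481.

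**Figure D1:**
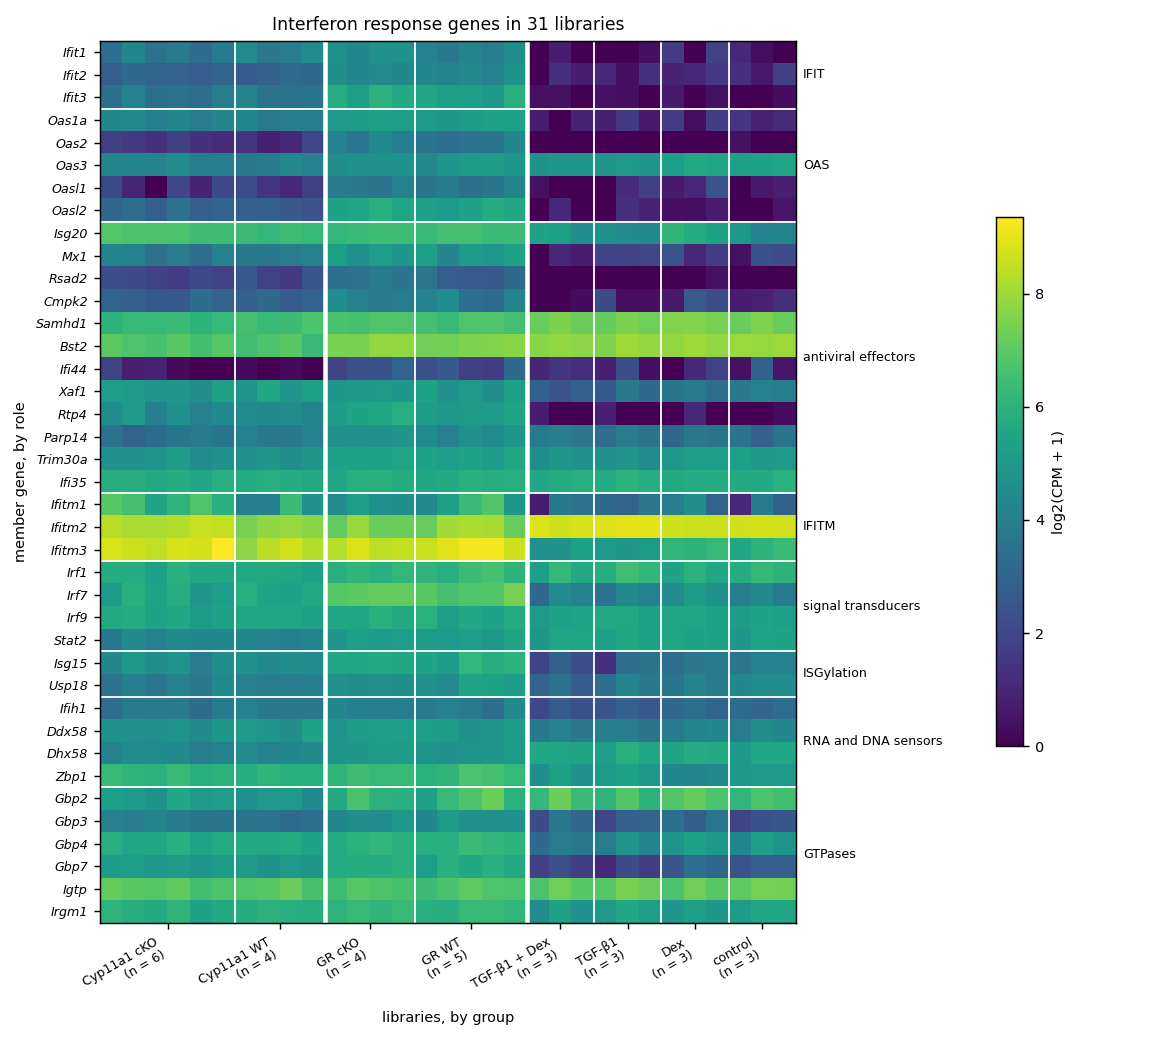
Colour gives log2(CPM + 1) of each of the 39 members (rows, by role) in each of the 31 libraries (columns, by group, with the treated or knockout groups left of their comparison group). Ifitm2 and Bst2 are bright in the CNS and in the cultured libraries, while Ifitm3 is brighter in the CNS. The IFIT genes, most OAS genes, Rsad2 and Rtp4 are dark in the 12 cultured libraries.

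Many members of the type I response were barely detected in culture. Levels in the CNS tables, here and in the next paragraph, include RNA of myeloid cells. In GR cKO library 3 the myeloid markers summed to 26102 CPM and the T cell markers to 18621.5 CPM. In GR WT library 3 these sums were 6060 and 17608 CPM. The part of myeloid RNA in the levels of the members was not tested. Ifit1, which binds viral RNA that lacks a host cap, lay between 8.61 and 22.5 CPM in the Cyp11a1 experiment and between 12.8 and 27.2 CPM in the GR experiment, against 0 to 2.60 CPM in the 12 cultured libraries. Ifit3, its partner, lay between 9.06 and 18.2 CPM and between 30.5 and 63.9 CPM in the CNS experiments, and at 0.617 CPM or less in culture. It shares 57.3% of its 38-base words with Ifit3b. Ifit2 reached 8.70 CPM, 27.0 CPM and 2.43 CPM at most in the Cyp11a1, GR and in vitro tables. The synthetases Oas1a and Oas2, which make the signal that switches on RNase L, and the related Oasl1 and Oasl2 were as low in culture: Oas2 had 1 count in 1 library, Oas1a 0 to 7 counts, Oasl1 0 to 13 and Oasl2 0 to 5. Oas1a shares 64.4% of its words with Oas1g. Oas3 was the exception in its family, at 26.9 to 48.4 CPM in culture. The antiviral enzyme Rsad2 (viperin) had 1 count in 1 of the 12 cultured libraries, Rtp4 had 0 to 4 counts and Ifi44 had 0 to 24. These 10 members (Ifit1, Ifit2, Ifit3, Oas1a, Oas2, Oasl1, Oasl2, Rsad2, Ifi44 and Rtp4) did not pass the low-count filter in culture, so 29 of the 39 were tested there. In the Cyp11a1 experiment Oas2 (4 to 13 counts) and Ifi44 (0 to 13 counts) did not pass, and 37 were tested. All 39 were tested in the GR experiment.

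Not all members were low in culture. The GTPases Igtp (104 to 172 CPM), Gbp2 (63.9 to 153 CPM) and Irgm1 (22.4 to 46.3 CPM) were well detected there, while Gbp3 lay between 2.80 and 11.9 CPM and Gbp7 between 1.13 and 9.58 CPM. In the CNS tables Gbp3 lay between 8.70 and 31.8 CPM and Gbp7 between 26.9 and 60.4 CPM. Samhd1, which depletes the nucleotides that viruses need, had 141 to 195 CPM in culture, against 64.7 to 104 CPM in the Cyp11a1 table and 77.6 to 111 CPM in the GR table. Irf7, the factor that amplifies type I interferon, had 8.502 to 35.3 CPM in culture, 28.3 to 60.3 CPM in the Cyp11a1 table and 95.2 to 171 CPM in the GR table. Irf9, the DNA-binding partner of STAT2, had 31.6 to 50.01 CPM in culture, 33.1 to 53.2 CPM in the Cyp11a1 table and 35.9 to 61.4 CPM in the GR table. Stat2 lay at 12.6 to 20.3 CPM in the Cyp11a1 table, 28.2 to 43.1 CPM in the GR table and 29.4 to 47.5 CPM in culture. Within groups, members with a mean of at least 5 CPM had a median SD of 13.1% to 22.3% of the mean. Ifitm1 was the most spread of them in 6 of the 8 groups, with an SD of 37.3% of the mean in Cyp11a1 cKO libraries and 91.5% in Cyp11a1 WT libraries.

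The cultures asked what TGF-β1 and Dex, alone and together, do to inflammatory Th17 cells. With TGF-β1 and Dex together, 7 of the 29 tested members fell relative to control and 0 rose (24.1%), where 6.25% of all 10332 genes tested were called in either direction, 3.12% higher and 3.14% lower. The 7 were Isg15 and Usp18, the IFITM gene Ifitm3, Oas3, the sensor Ifih1, Xaf1 and the GTPase Gbp4. Over the 29 members the median log2 fold change was -0.27, with 10 positive and 19 negative, against 0.0011 over all genes. By arm, 6 of 23 tested type I response genes fell (median -0.16), and 1 of 6 GTPases (median -0.41). The comparisons with control share the same 3 control libraries, so the values of each are given side by side. As these are bulk libraries, fewer cells that express a gene and less RNA per cell cannot be told apart. The labels do not state whether the libraries of a group came from separate cultures or mice, so the p-values measure only the spread between libraries. Where groups are said below not to overlap, the share of all genes that separate in this way was not counted. This holds for each experiment.

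Usp18, the protease that removes ISG15 and blocks the type I receptor, had 6.80, 10.1 and 5.47 CPM with TGF-β1 and Dex, 9.07, 17.1 and 12.7 CPM with TGF-β1, 11.1, 17.0 and 13.0 CPM with Dex, and 18.9, 21.5 and 21.7 CPM in control. All 9 treated libraries lay below the 3 controls, and the lowest values were in libraries 3 and 1 with both agents. Relative to control Usp18 fell by 1.51 ± 0.26 (SE, log2) with both agents (edgeR adjusted p = 0.00309), while its log2 fold changes of -0.66 ± 0.24 with TGF-β1 and -0.59 ± 0.24 with Dex did not pass (edgeR adjusted p = 0.202 and 0.287). Isg15, the ubiquitin-like modifier itself, lay between 2.72 and 6.30 CPM with both agents, between 1.51 and 11.5 CPM with TGF-β1, between 9.26 and 13.7 CPM with Dex and between 11.9 and 16.1 CPM in control. The libraries with both agents did not overlap the controls. Isg15 fell by 1.80 ± 0.45 on the log2 scale with both agents (edgeR adjusted p = 0.0331), and its changes of -0.93 ± 0.42 with TGF-β1 and -0.33 ± 0.39 with Dex did not pass (edgeR adjusted p = 0.315 and 0.801). The Usp18 call stood without any 1 library, whereas the Isg15 call was lost without control library 1, 2 or 3 (edgeR adjusted p = 0.0575, 0.0937 and 0.101), without library 1 or 3 of the combined group (0.118 and 0.122) and without Dex library 2 (0.0517). It was also lost with no low-count filter (0.1003).

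Ifitm3 had 25.5, 26.6 and 41.7 CPM with TGF-β1 and Dex, 31.7, 30.1 and 33.6 CPM with TGF-β1, 70.1, 65.1 and 75.4 CPM with Dex, and 46.2, 64.6 and 78.4 CPM in control. The 6 libraries with TGF-β1 all lay below the 6 without it. Ifitm3 fell by 0.99 ± 0.20 (SE, log2) relative to control with both agents (edgeR adjusted p = 0.00927) and by 1.00 ± 0.20 with TGF-β1 (0.0149), while the value with Dex was 0.14 ± 0.19 (0.827). The call with both agents stood without any 1 library but not when the 2 groups were fitted alone (0.0524). Ifitm2, a neighbour on chromosome 7, did not follow it, with 449.9, 409.9 and 437 CPM with both agents, 465, 487 and 504 CPM with TGF-β1, 408, 386 and 398 CPM with Dex, and 413, 429 and 414 CPM in control. The 3 libraries with TGF-β1 alone lay above the others, and Ifitm2 rose there by 0.21 ± 0.05 (SE, log2) relative to control (edgeR adjusted p = 0.0408), while the change with both agents was 0.05 ± 0.05 (0.710).

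Oas3, the largest member of the OAS family, had 26.9, 30.1 and 28.4 CPM with TGF-β1 and Dex, 28.7, 32.7 and 28.1 CPM with TGF-β1, 38.3, 48.4 and 43.9 CPM with Dex, and 37.8, 42.2 and 44.5 CPM in control. Again the 6 libraries with TGF-β1 lay below the 6 without it. Oas3 fell by 0.55 ± 0.12 (SE, log2) relative to control with both agents (edgeR adjusted p = 0.0129) and by 0.48 ± 0.12 with TGF-β1 (0.0432). The first call was lost without control library 3 (0.0671) or without library 1 or 3 of the combined group (0.0603 and 0.0507).

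Ifih1, which encodes the sensor MDA5 of long double-stranded RNA, had 3.06, 5.596 and 4.00 CPM with TGF-β1 and Dex, 4.53, 6.36 and 4.84 CPM with TGF-β1, 8.02, 9.30 and 7.15 CPM with Dex, and 8.75, 7.36 and 9.49 CPM in control. No library with TGF-β1 reached the lowest without it. Ifih1 fell by 1.02 ± 0.24 (SE, log2) relative to control with both agents (edgeR adjusted p = 0.0222), and its change with TGF-β1 was -0.69 ± 0.23 (0.168). The call was lost without control library 1 or 3 (0.0655 and 0.0929), without library 1 or 3 of the combined group (0.0912 and 0.0888), in DESeq2 (0.139), and with the 2 groups fitted alone (0.0635). The related sensor Ddx58 (RIG-I) and the regulator Dhx58 (LGP2) did not pass, with log2 fold changes of -0.50 ± 0.21 and 0.14 ± 0.18 and edgeR adjusted p of 0.219 and 0.757.

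Xaf1, a pro-apoptotic antagonist of XIAP, had 6.46, 4.20 and 6.53 CPM with TGF-β1 and Dex, 5.29, 12.4 and 8.17 CPM with TGF-β1, 11.4, 13.1 and 9.43 CPM with Dex, and 12.6, 15.8 and 14.1 CPM in control. The combined group lay wholly below the controls, with 1 library with TGF-β1 inside its range. Xaf1 fell by 1.29 ± 0.27 (SE, log2) relative to control with both agents (edgeR adjusted p = 0.0127), and the call was lost without control library 2 (0.0530) or library 2 of the combined group (0.0515). Gbp4, a guanylate-binding protein, had 8.16, 14.3 and 12.8 CPM with TGF-β1 and Dex, 14.4, 29.5 and 17.9 CPM with TGF-β1, 27.5, 39.1 and 30.6 CPM with Dex, and 18.5, 36.3 and 27.5 CPM in control. All 3 libraries with both agents lay below the 9 others. Gbp4 fell by 1.22 ± 0.30 (SE, log2) relative to control with both agents (edgeR adjusted p = 0.0316), and its changes with TGF-β1 and with Dex were -0.41 ± 0.29 (0.565) and 0.23 ± 0.27 (0.803). Leaving out control library 2 or 3 (0.132 and 0.0819) or library 1, 2 or 3 of the combined group (0.118, 0.0521 and 0.0832) ended this call, as did dropping the low-count filter (0.0968). Gbp4 overlaps Gbp8 and Gbp9 on chromosome 5, and 11.8% of its 38-base words are shared with other genes.

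**Figure D2:**
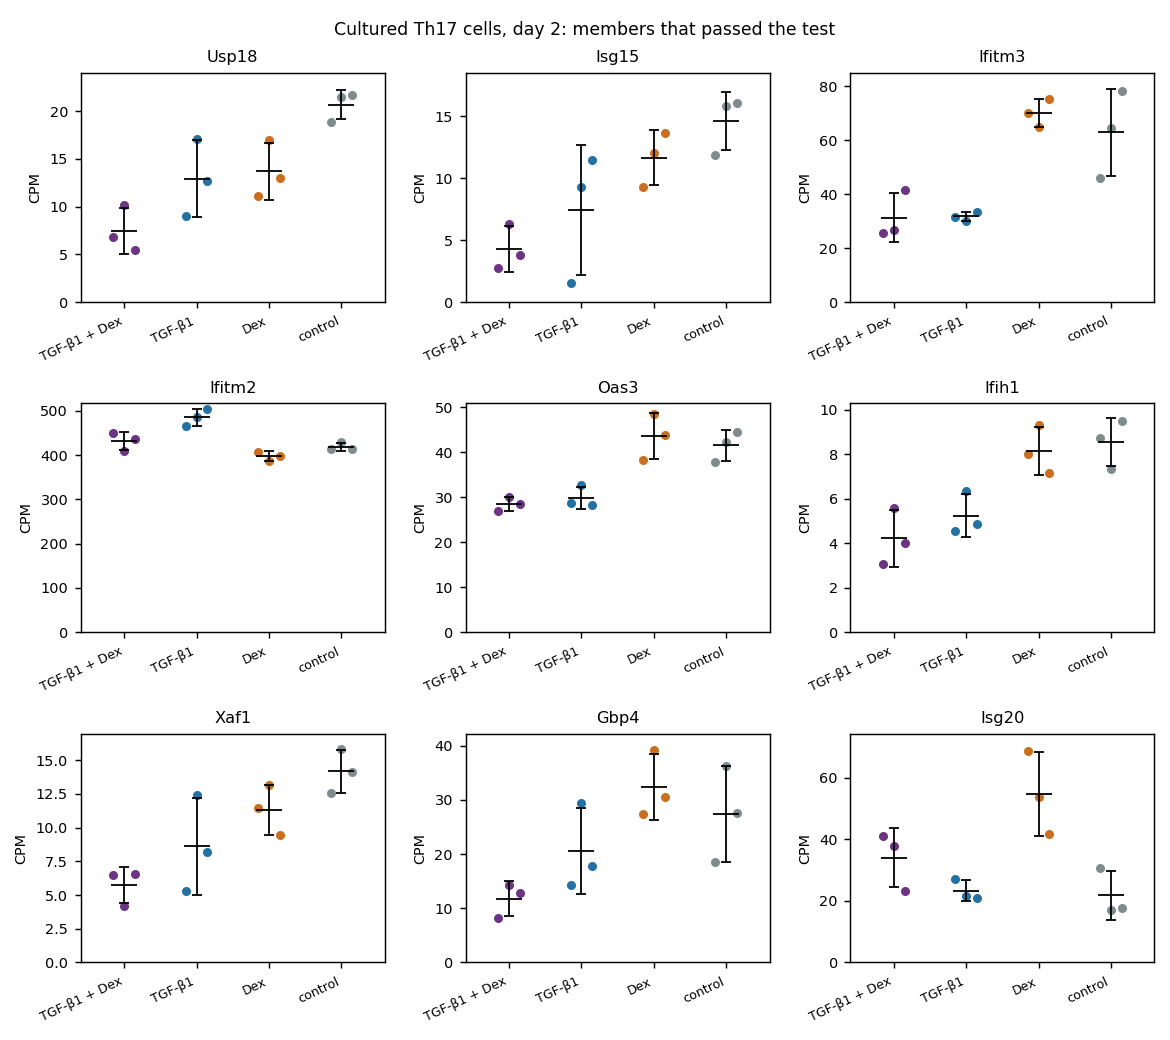
Points are single libraries of 4 cultured groups (3 each) in CPM from 0, with the mean and SD as bars, for the 9 members that passed a test in culture. Usp18, Isg15, Xaf1 and Gbp4 are lowest on average with both agents, Ifitm3, Oas3 and Ifih1 are low in both groups with TGF-β1, and Isg20 is highest with Dex.

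The other 5 GTPases did not pass with both agents, and they lay on both sides of 0. Gbp7 had a log2 fold change of -0.97 ± 0.38 and Irgm1 of -0.53 ± 0.21 relative to control (edgeR adjusted p = 0.174 and 0.176). Gbp3, with 0.95 ± 0.43, lay the other way (edgeR adjusted p = 0.257), and Gbp2 and Igtp had 0.20 ± 0.29 and -0.28 ± 0.18. The transducers Irf1, Irf7, Irf9 and Stat2 had log2 fold changes between -0.27 and 0.08, none past the threshold. The low-count members Mx1, of the MX family, and Cmpk2, a mitochondrial nucleotide kinase, passed the filter but not the test. Mx1 had 0, 3 and 3 counts with both agents, against 1, 15 and 15 in control. Cmpk2 had 0, 0 and 1 counts, against 2, 3 and 6 in control.

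With TGF-β1 alone, 3 of the 29 members passed relative to control (10.3%), where 3.29% of the 10332 genes did, 1.93% higher and 1.36% lower. These are the rise of Ifitm2 and the falls of Ifitm3 and Oas3 given above, and the median log2 fold change of the 29 was -0.02. All 3 belong to the type I response, and the 6 GTPases had a median of -0.13 with 0 past the threshold. NK and CD8 T cell markers summed to 12.1 to 13.6 CPM with TGF-β1 (6 of 10 detected, Ncr1, Klrb1c, Klra8 and Eomes at 0), against 23.1 to 26.2 CPM in control (8 of 10 detected, Ncr1 and Klra8 at 0), and their part in the result was not tested. Within this sum, Gzma had 7, 10 and 9 counts with TGF-β1, against 33, 30 and 28 in control. Cd8b1 had 18, 24 and 27 counts, against 27, 39 and 54, and Cd8a had at most 2 in either group. None of the 3 calls stood against every omission of a library. Ifitm3 lost it without control library 2 (edgeR adjusted p = 0.0507) or 3 (0.0697) and without TGF-β1 library 1 (0.0577) or 2 (0.0653). Oas3 lost it without control library 1, 2 or 3 (0.0548, 0.131 and 0.171), TGF-β1 library 1, 2 or 3 (0.155, 0.0570 and 0.154), Dex library 3 (0.0630) or library 1, 2 or 3 of the combined group (0.0619, 0.0596 and 0.0675). The Oas3 call was also lost in DESeq2 (0.147), with no low-count filter (0.0822) and with the 2 groups fitted alone (0.0881). Ifitm2 lost it without control library 1, 2 or 3 (0.117, 0.0762 and 0.132), TGF-β1 library 1, 2 or 3 (0.0511, 0.115 and 0.145), Dex library 1, 2 or 3 (0.0550, 0.0532 and 0.0521) or library 3 of the combined group (0.0539), and likewise with no low-count filter (0.148) or with the 2 groups fitted alone (0.0955). Gbp7, the GTPase with the largest change under TGF-β1, had 1.13, 3.47 and 2.12 CPM with TGF-β1 against 4.20, 6.00 and 6.09 CPM in control. These values rest on few counts, 3, 12 and 7 with TGF-β1 against 12, 22 and 25 in control. In CPM the groups did not overlap, but the log2 fold change of -1.23 ± 0.39 did not pass (0.135).

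With Dex alone, 1 of the 29 members passed relative to control (3.45%), where 1.83% of all genes did, 0.919% higher and 0.91% lower, so its share was near the background. The 6 GTPases had a median log2 fold change of 0.33, with 0 past the threshold in edgeR. Of the 6, 1 had an unadjusted p under 0.05, as did 13.2% of all genes. The 23 type I response genes had a median of 0.06. The member that passed was Isg20, with 68.8, 53.6 and 41.6 CPM with Dex, against 30.8, 16.9 and 17.5 CPM in control. The Dex libraries all lay above the controls, and Isg20 rose by 1.36 ± 0.27 (SE, log2; edgeR adjusted p = 0.0226). In the combined group it had 41.2, 37.8 and 23.2 CPM and a log2 fold change of 0.65 ± 0.28 over control that did not pass (0.228). The Dex call was lost without control library 2 or 3 (0.0890 and 0.106), without Dex library 1 or 2 (0.0936 and 0.0663) and with no low-count filter (0.0604). Zbp1, a sensor of Z-form nucleic acid that can start necroptosis, came next with 19.4, 18.1 and 20.5 CPM with Dex, against 30.4, 31.9 and 31.2 CPM in control. These groups did not overlap, but the log2 fold change of -0.69 ± 0.17 did not pass (edgeR adjusted p = 0.0654). Gbp3 and Irf7 also had every Dex library above every control library, with log2 fold changes of 1.18 ± 0.43 and 0.75 ± 0.31 (edgeR adjusted p = 0.225 and 0.294). Gbp3 rests on few counts, 31, 21 and 36 with Dex against 8, 15 and 19 in control, and was highest in Dex library 3. How many of all genes separate the groups in this way was not counted.

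**Figure D3:**
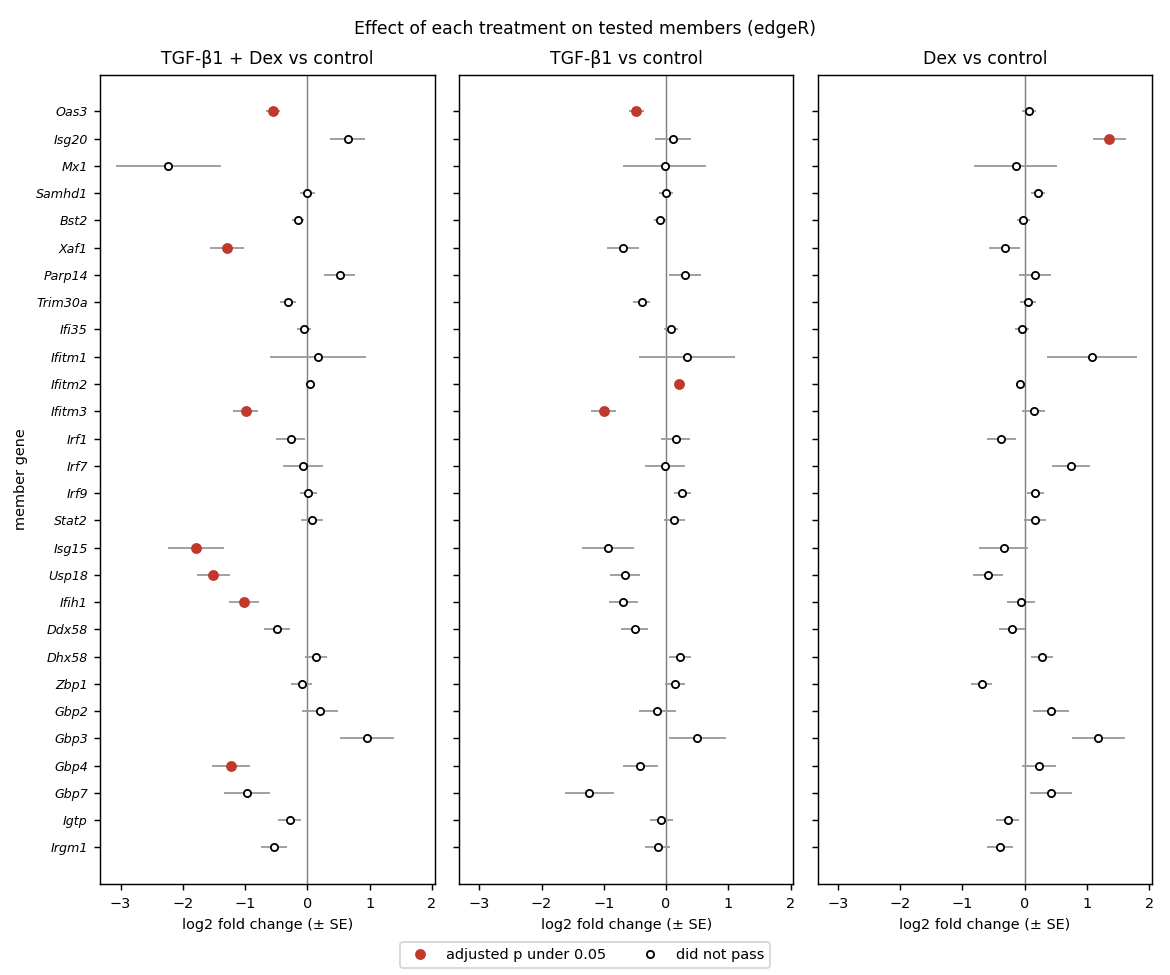
Each row is a tested member (28 of the 29, Cmpk2 left out for its low counts) and each panel a comparison with control; points give the edgeR log2 fold change with its SE, filled where the adjusted p is under 0.05. Filled points lie left of 0 for all 7 calls with both agents, while Isg20 under Dex and Ifitm2 under TGF-β1 lie right of it.

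Adding TGF-β1 to Dex lowered 3 of the 29 members (10.3%), where 2.62% of all genes changed, with 1.46% higher and 1.16% lower. Relative to Dex alone, Ifitm3 fell by 1.13 ± 0.20 (SE, log2; edgeR adjusted p = 0.00734), Oas3 by 0.62 ± 0.12 (0.0131) and Gbp4 by 1.45 ± 0.30 (0.0228), from the library values given above. The Ifitm3 call stood without any 1 library. Oas3 lost its call without Dex library 2 (0.0750), without library 1 or 3 of the combined group (0.0644 and 0.0598) or in the 2 groups alone (0.0526), and Gbp4 without Dex library 2 or 3 (0.106 and 0.0610), without library 1 or 3 of the combined group (0.0962 and 0.0772) or with no low-count filter (0.0735). Of the 29 members 25 had a negative log2 fold change, with a median of -0.29, against -0.0049 over all genes. All 6 GTPases were negative, with a median of -0.23, and the 23 type I response genes had a median of -0.37. Adding Dex to TGF-β1 changed 0 of the 29 members in edgeR and 0 in DESeq2. Of all genes 0.532% passed in edgeR, 0.31% higher and 0.223% lower. An unadjusted p under 0.05 was found for 5 members, and for 9.85% of all genes. The smallest p belonged to Ifitm2 (log2 fold change -0.17 ± 0.05), Usp18 (-0.85 ± 0.27), Mx1 and Gbp4 (-0.81 ± 0.32), with edgeR adjusted p of 0.259, 0.284, 0.397 and 0.400.

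Whether the agents act on a member other than by adding up was tested as the interaction of Dex and TGF-β1. It passed for 0 of the 29 members and 0% of all genes in edgeR, and for 0 members in DESeq2. Of the 29 interaction values, 5 were positive and 24 negative, with a median of -0.22 against -0.0056 over all genes. An unadjusted p under 0.05 was found for 2 members, and for 5.34% of all genes. The smallest p belonged to Cmpk2, Gbp4 (-1.04 ± 0.42 on the log2 scale), Irf9 (-0.42 ± 0.19) and Isg20 (-0.83 ± 0.39), with edgeR adjusted p of 0.816, 0.860, 0.909 and 0.909. For Isg15 the interaction was -0.53 ± 0.63 and for Usp18 -0.25 ± 0.36, so their lower level under both agents was not shown to differ from the sum of the effects of each alone.

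In the Cyp11a1 experiment, which asked what loss of the steroid-making enzyme does to Th17 cells in the inflamed CNS, 1 of the 37 tested members passed (2.70%), where 0.178% of 10125 genes did, 0.138% higher and 0.0395% lower. Ifitm2 had 284 CPM in the lowest, 313 in the median and 376 in the highest of the 6 cKO libraries, against 174, 219, 240.1 and 203 CPM in the 4 WT libraries. All cKO libraries lay above all WT libraries, and Ifitm2 rose by 0.63 ± 0.11 (SE, log2; edgeR adjusted p = 0.0321). The call was lost without cKO library 1, 4, 5 or 6 (0.0661, 0.0675, 0.0732 and 0.0573) and without WT library 1, 2 or 4 (0.0864, 0.0811 and 0.138), while the log2 fold change stayed between 0.55 and 0.65 in those fits. The summed myeloid and microglia markers, 23 of 23 detected, ran from 863 to 1645 CPM in cKO libraries and from 610 to 848 CPM in WT libraries. With that sum as a covariate the log2 fold change was 0.62 ± 0.16 and did not pass (0.179). Every cKO library had a higher sum than every WT library, so this fit cannot tell genotype and myeloid RNA apart. NK and CD8 T cell markers ran from 208 to 502 CPM in cKO libraries and from 78.8 to 341 CPM in WT libraries. All 10 of these markers were detected in cKO cells and 9 of 10 in WT cells, where Klra8 was at 0, and their part in the result was not tested.

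The other IFITM genes lay the same way without passing. Ifitm3 had 347, 437 and 652 CPM in the lowest, median and highest cKO library, against 212, 337, 422 and 311 CPM in the WT libraries, with a log2 fold change of 0.50 ± 0.19 (edgeR adjusted p = 0.532). Ifitm1, which sits at the cell surface, had 42.8, 80.9 and 120.4 CPM, against 15.02, 15.3, 81.8 and 27.0 CPM, with 1.22 ± 0.53 (0.603). The groups overlapped for both genes, and WT library 3, high in Ifitm1, was also the WT library highest in NK and CD8 T cell markers.

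Among the remaining members 8 had an unadjusted p under 0.05, counting these 2 IFITM genes, and none passed. Of all 10125 genes tested, 810 (8%) had such a p. Isg20 had 85.2, 104 and 115 CPM in the lowest, median and highest cKO library, against 83.2, 72.4, 85.4 and 76.3 CPM in WT libraries (log2 fold change 0.34 ± 0.10, edgeR adjusted p = 0.325). Parp14 (-0.48 ± 0.17), an ADP-ribosyltransferase, Samhd1 (-0.29 ± 0.10) and Ifit1 (-0.50 ± 0.23) were negative, and Gbp3 and Oasl2 (0.50 ± 0.21) were positive. Isg15 and Usp18, which fell in culture with both agents, averaged 23.3 ± 5.85 and 14.4 ± 3.63 CPM in cKO cells and 23.2 ± 2.66 and 14.8 ± 0.61 CPM in WT cells (SD, n = 6 and 4). Over the 37 members 19 log2 fold changes were positive and 18 negative, with a median of 0.0015 against 0.0027 over all genes, and the 6 GTPases had a median of 0.11.

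**Figure D4:**
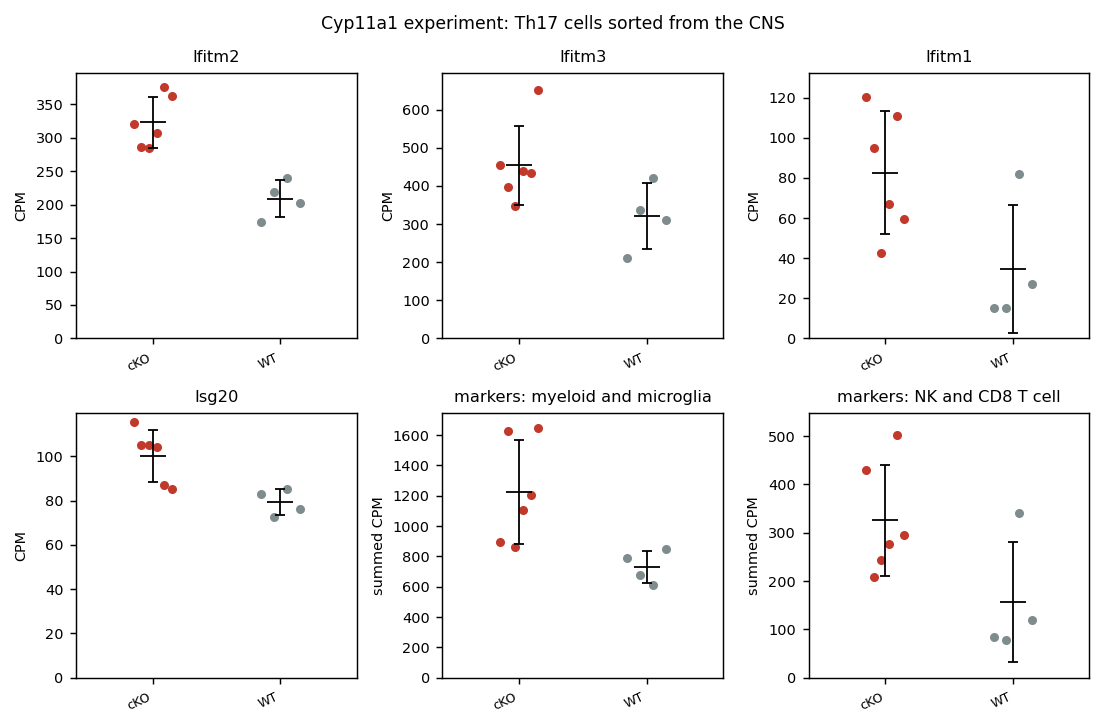
Points are single libraries of CNS Th17 cells (6 Cyp11a1 cKO, 4 WT) in CPM from 0, with the mean and SD as bars, for 3 IFITM genes and Isg20, and for the summed markers of myeloid and of NK and CD8 T cells. Ifitm2 separates the genotypes fully, and the myeloid sum, at 863 to 1645 CPM in cKO, also lies above its WT values of 610 to 848 CPM.

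In the GR experiment, which asked what loss of glucocorticoid sensing does to the same kind of cells, 0 of the 39 members passed in edgeR and 0 in DESeq2, with 5 at an unadjusted p under 0.05. Of the 10597 genes tested 0% passed in edgeR, 870 had an unadjusted p under 0.05, and DESeq2 called 3. The 4 members of smallest p were Ifit1, Ifitm3, Rsad2 and Ifitm1. Ifit1 had 25.05, 19.8, 27.2 and 26.1 CPM in cKO libraries, against 15.8, 12.8, 17.3, 14.6 and 23.8 CPM in WT libraries, with a log2 fold change of 0.55 ± 0.18 (edgeR adjusted p = 0.580). Rsad2 had 9.71, 10.6, 13.5 and 11.2 CPM, against 11.8, 5.88, 5.56, 5.12 and 8.41 CPM (0.61 ± 0.25, edgeR adjusted p = 0.580). In both genes the cKO values overlap the upper WT values.

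The IFITM genes lay the opposite way. Ifitm3 had 319, 460.1, 339 and 362 CPM in cKO libraries, against 376, 499.5, 594 and 589 CPM in WT libraries 1 to 4 and 403 CPM in WT library 5, with a log2 fold change of -0.41 ± 0.17 (edgeR adjusted p = 0.580). Ifitm1 had 21.9, 36.0, 24.9 and 24.2 CPM, against 21.4, 39.1, 77.9, 110.3 and 30.1 CPM (-1.05 ± 0.43, 0.580). WT libraries 3 and 4 were the highest for both. The same 2 libraries had the lowest myeloid marker sums, 6060 and 7989 CPM, against 11384 to 24767 CPM in the other WT libraries and 13528 to 26102 CPM in cKO libraries. They were also the highest in Gbp2 (105 and 153 CPM), Usp18 (43.0 and 42.2 CPM) and Ifng (67.1 and 72.2 CPM). NK and CD8 T cell markers summed to 111 and 121 CPM there, against 45.7 to 105 CPM in the other libraries. Within that sum, Gzma was highest in WT library 2 (225 counts). The part of such cells in the result was not tested. The markers in the myeloid sum did not all move together. Apoe had 2665 and 2835 counts in WT libraries 3 and 4, against 14174 to 63465 in the others. Ly6c2 went the other way, with 1040 and 935 counts in WT libraries 3 and 4, against 201 to 835 in the others. Without these 2 libraries, a choice made after seeing the data, the log2 fold changes became -0.20 ± 0.16 for Ifitm3, -0.16 ± 0.24 for Ifitm1, 0.37 ± 0.25 for Rsad2 and 0.52 ± 0.22 for Ifit1, and 0 members passed. With the myeloid sum as a covariate they were -0.15 ± 0.09, -0.18 ± 0.28, 0.31 ± 0.19 and 0.40 ± 0.18, again with 0 members past the threshold.

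**Figure D5:**
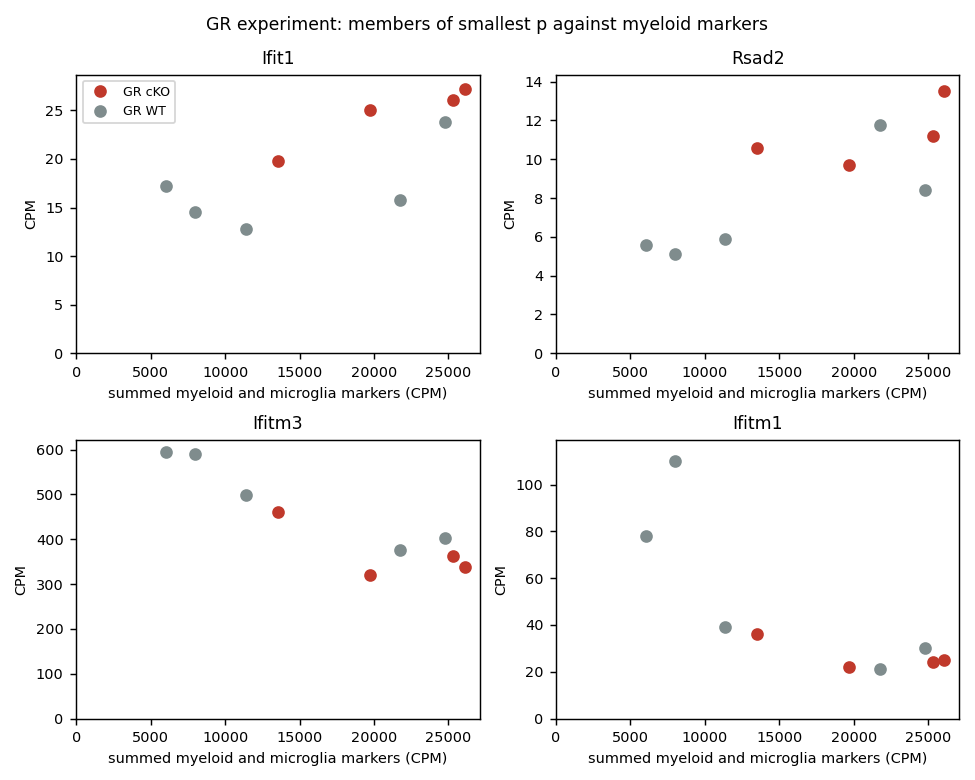
Each point is 1 library of the GR experiment (4 cKO, 5 WT), with the summed myeloid and microglia markers on the x axis and the member on the y axis, both in CPM from 0. Ifitm3 and Ifitm1 are highest at the 2 lowest marker sums, both WT, and Rsad2 is lowest in the 3 WT libraries with the lowest sums.

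The remaining 35 members had log2 fold changes between -0.41 (Usp18) and 0.40 (Oas2) in the GR experiment, with libraries of the groups overlapping for each. Over the 39 members 23 were positive and 16 negative, with a median of 0.06 against -0.0014 over all genes. The 3 IFIT genes were positive, the 3 IFITM genes negative, and the 6 GTPases split into 2 positive and 4 negative, with a median of -0.06.

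The wider pathway was followed through 116 other genes in 6 lists. Of the 20 interferon ligands, Ifng passed the low-count filter and the others did not. Ifnb1 had at most 2 counts in any CNS library and 10 counts in Dex library 3, with 0 in the other 11 cultured libraries. Ifng, interferon gamma itself, had 0, 1 and 0 counts with TGF-β1 and Dex, 0, 15 and 14 with TGF-β1, 0, 0 and 0 with Dex, and 31, 5 and 9 in control, and no comparison of it passed. In the CNS tables Ifng had 39.8 to 77.3 CPM in Cyp11a1 cKO, 19.6 to 67.0 CPM in Cyp11a1 WT, 10.02 to 28.4 CPM in GR cKO and 10.3 to 72.2 CPM in GR WT libraries.

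None of the other pathway genes tested passed in the CNS (0 of 89 in the Cyp11a1 experiment with 4 at an unadjusted p under 0.05, and 0 of 95 in the GR experiment with 9, by edgeR), and 76 were tested in culture. Of all genes, 8% in the Cyp11a1 and 8.21% in the GR experiment had such an unadjusted p. With both agents 4 of the 76 rose and 6 fell relative to control, where 6.25% of all genes were called. The 6 of smallest p were Socs3 (0.80 ± 0.10), a feedback inhibitor of cytokine signals, Gbp8 (-1.22 ± 0.19), the proteasome subunit gene Psmb10 (-0.86 ± 0.16), Uba7 (-0.93 ± 0.18), the enzyme that activates ISG15, Irf4 (0.31 ± 0.07) and Gbp9 (-1.42 ± 0.30), with log2 fold changes ± SE and edgeR adjusted p between 0.000407 and 0.0134. With TGF-β1 alone, where 3.29% of all genes were called, 3 rose, namely Socs3 (0.84 ± 0.10), Irf8 (0.66 ± 0.12) and Irf4 (0.33 ± 0.07), and 3 fell, namely Gbp8 (-0.88 ± 0.18), Ly6e (-0.33 ± 0.06) and Epsti1 (-0.94 ± 0.23). With Dex alone, where 1.83% of all genes were called, Ly6e rose by 0.41 ± 0.06 while Tmem173 (STING) fell by 0.46 ± 0.08 and Irf8 by 0.68 ± 0.12. Relative to Dex, both agents raised 3 and lowered 8 of the 76, where 2.62% of all genes were called. Relative to TGF-β1 they changed 0 in edgeR, with 14 at an unadjusted p under 0.05, where 9.85% of all genes had such a p. The interaction passed for 0 of the 76, with 1 at an unadjusted p under 0.05, where 5.34% of all genes had such a p.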

How the data were processed

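Gene-level counts were deposited by the authors as 3 tables of raw, whole-number counts. RSEM 1.3.3 and build mm10 are listed in the submitters' processing notes, without the role of either. Per the labels' protocols, RNA of about 2000 sorted cells per library went through a modified SMART-Seq2 and Nextera XT preparation with paired 38-base reads, a method that marks no strand and carries no molecular identifiers. Overlapping genes can therefore not be told apart by strand. All columns were mapped by name and 0 were left unused.

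Each table was tested on its own. Genes were filtered with edgeR's filterByExpr and scaled by TMM, and edgeR's quasi-likelihood test (edgeR 4.0.16, limma 3.58.1, R 4.3.3) was fitted over all genes with Benjamini-Hochberg adjustment. The threshold was an adjusted p of 0.05. The cultures were fitted as 4 groups sharing 1 estimate of spread. CPM values use TMM-scaled library sizes. Library totals ran from 2769203 to 5623305 counts, which limits members under about 5 CPM. The fitting was tested on simulated counts. Replicates differed by more than counting noise (chi-square per degree of freedom of 2.79 to 142 over 49 pairs), so none was merged.

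The members and lists were chosen with earlier results of these data known. Named in full were the members that passed, and in each comparison the members of smallest p. Alternatives were DESeq2 size factors, DESeq2 1.42.0, no low-count filter, only the compared groups, no repeat-like predicted genes, the myeloid marker sum as covariate, the replicate number as a block, and leaving out each library. Lengths, positions and shared 38-base words came from GRCm38 (mm10) with GENCODE M21 annotation, and promoters from RefSeq on GRCm38.p6.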

Additional observations from a re-analysis of the deposited data

Results flagged for a closer look

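In 6 of 152 checks of a member within a group of 4 to 6 libraries, 1 library stood far from the others, and chance alone flags about 1 in 20 such groups. Ifitm3 reached 652 CPM in Cyp11a1 cKO library 6, against 347 to 456 CPM in the other 5 cKO libraries. In Cyp11a1 WT library 1, Ifit3 had 18.2 CPM, against 10.3 to 10.9 CPM in the other WT libraries, and Ifih1 had 16.1 CPM, against 12.0 to 12.5 CPM. Among GR cKO libraries, Ifitm2 had 238 CPM in library 2, against 138 to 153 CPM in the others, and Isg15 had 51.8 CPM in library 3, against 46.6 to 47.1 CPM. In GR WT library 5, Oas2 had 19.3 CPM, against 9.32 to 11.3 CPM in the other WT libraries.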

How the results depend on the processing

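None of the 27 named member results changed direction under the alternatives that kept every library. Counts of calls moved more. For Cyp11a1 cKO against WT, the 18 genes called became 33 with no low-count filter and 63 in DESeq2, and the 1 member called became 0 with the myeloid sum as covariate. For GR the 0 genes called became 3 in DESeq2 and 1 without WT libraries 3 and 4, an alternative chosen after seeing the data. The 3 members called with TGF-β1 became 1 with no filter and 1 with the compared groups alone, and the 1 member called with Dex became 2 with the groups alone. The 55 genes called for both agents against TGF-β1 became 94 in DESeq2 and 22 with the groups alone, and the 0 genes of the interaction became 4 with no filter and 6 in DESeq2. The cause of these shifts was not tested.

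Leaving out 1 library at a time gave 9 to 22 genes and 0 to 1 members for Cyp11a1, 0 to 1 genes and 0 members for GR, 78 to 180 genes and 0 to 2 members for Dex, 219 to 326 genes and 0 to 2 members for TGF-β1, and 425 to 641 genes and 3 to 7 members for both agents against control. It gave 24 to 57 genes and 0 members for both agents against TGF-β1, 152 to 266 genes and 1 to 4 members for both agents against Dex, and 0 to 1 genes and 0 members for the interaction.

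The labels share replicate numbers across groups without saying that a number marks a shared animal or day. As deviations from group means, same-numbered libraries correlated between -0.148 and -0.0484 for Cyp11a1 and between -0.245 and 0.140 for GR. In culture they correlated between -0.0135 and 0.0731, with a median of 0.0291 against -0.0173 for libraries of other numbers. As the labels name no pairs, the numbers were not taken as pairs in the main tests. In culture 12 of 12 libraries correlated best with their own number, a hint from the data and not the design. With the replicate block, Cyp11a1 kept 1 gene called and 0 members (Ifitm2 at an edgeR adjusted p of 0.515). Ifitm2 with TGF-β1 against control also lost its call (0.0546), and the interaction had 2 genes. Members called then numbered 7 for both agents against Dex and 9 against control, where 3 and 7 were called without the block.

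Few counts limit what can be said of the 10 of 39 members that did not pass the low-count filter in culture. These were also low there in CPM, which is scaled for library size.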

Other observations

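Dex library 3 had 10 counts of Ifnb1 and 9 counts of Ifna4, ligands of the type I receptor. The other 11 cultured libraries had 0 counts of Ifnb1, and of Ifna4 they had 0 other than 3 counts in library 2 with TGF-β1 and Dex. Oasl1 had 13 counts and Ifit1 had 8 in Dex library 3, against 2 and 4 counts of Oasl1 and 7 and 0 counts of Ifit1 in the other Dex libraries and 0, 2 and 3 counts of Oasl1 and 3, 1 and 0 counts of Ifit1 in control. TGF-β1 library 3, with 0 counts of Ifnb1, had 8 counts of Oasl1. Dex library 3 also stood apart in markers of other cells, with 23 counts of Chil3, 6 of Tyrobp and 10 of Igkc, against at most 2, 0 and 3 in the other cultured libraries, and Ptpn6 had 1174 counts there, against 444 to 791. The part of such cells in these counts was not tested.

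The steadiest members differed by setting. Among members with a mean of at least 5 CPM, Ifitm2 had the smallest spread in Dex and in control cultures, with an SD of 2.76% and 2.20% of the mean, Gbp7 in Cyp11a1 cKO libraries (9.34%) and Usp18 in Cyp11a1 WT libraries (4.09%).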
